A study of Mus musculus with 2 samples.

Results

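Single-cell RNA sequencing of mouse regulatory T (Treg) cells was examined for 5 genes that mark resting lymphocytes which travel through lymph nodes: Ccr7, S1pr1, Igfbp4, Dapl1 and Nsg2. The genes were chosen by name, as the rows that carry these symbols, and make up 5 of the 32285 features in the tables. Treg cells restrain other immune cells and depend on the transcription factor Foxp3. They had been stained with MitoTracker, a fluorescent dye of mitochondria, and the cells with a high and a low dye signal were sorted apart. These populations, titled Mito-High and Mito-Low, are written Mito-high and Mito-low. There is 1 library of each, for which 12000 cells were loaded on a 10x Genomics 5′ kit that gives every RNA molecule a barcode of its own, the unique molecular identifier (UMI). Genotype, tissue, strain, sex and age of the animals, and whether animals were pooled, are not stated in the labels. With 1 library per population there is no replicate check and no test between populations. Intervals below are 95% exact intervals that cover counting error only, and a size of 1.5-fold serves as a description.

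Naive and resting T cells enter lymph nodes through high endothelial venules, where CCR7 guides them by the chemokines CCL19 and CCL21. They leave again when S1PR1 senses sphingosine 1-phosphate in lymph, and the transcription factor KLF2 is known to drive S1pr1. Igfbp4 encodes a secreted binding protein of insulin-like growth factors, Dapl1 a small protein related to death-associated protein, and Nsg2 a membrane protein of endosomes first studied in neurons. Transcripts of the last 3 are widely used as marks of naive T cells, while Treg cells that have turned into effectors carry less Ccr7.

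The Mito-high library held 12352 barcodes and the Mito-low library 11901, of which 12217 and 11679 were kept after removal of barcodes with fewer than 500 genes or more than 20% mitochondrially encoded UMIs. Kept cells had a median of 6132 UMIs in the Mito-high library, against 4668 in the Mito-low one. The libraries shared 38 barcodes, 35 of them kept in each. No barcode was removed as a doublet. All 10 Treg marker genes were detected in both libraries, with a sum of 3861 UMIs per 1000000 (CPM) in Mito-high cells and 5369 CPM in Mito-low cells. Of the 10, 3 were lower in Mito-high by 1.5-fold or more, 0 higher and 7 between. Foxp3 itself stood at 25.8 CPM in Mito-high cells and 41.0 CPM in Mito-low. Il2ra went the other way, at 210 CPM in Mito-high cells and 157 CPM in Mito-low. Genes used as signs of RNA quality summed to 11576 CPM in Mito-high cells and 22915 CPM in Mito-low, and 4 of these 5, among them Malat1 and Gm42418, were lower in Mito-high by 1.5-fold or more. Markers of CD8 T cells summed to 46.1 CPM in Mito-high cells and 25.9 CPM in Mito-low, B cell markers to 184 and 336 CPM, markers of natural killer and innate lymphoid cells to 54.6 and 68.0 CPM, and myeloid markers to 84.8 and 106 CPM. Gamma delta T cell markers summed to 5.25 CPM in Mito-high cells and 4.84 CPM in Mito-low, and erythroid markers to 0.512 and 0.595 CPM. Ncr1 had 0 UMIs in both libraries, S100a9 had 0 in Mito-high and Sox13 had 0 in Mito-low. The part of RNA quality and of these other cell types in the values below was not tested beyond the restrictions given beside them.

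The 5 genes lie on 3 chromosomes of the mouse genome GRCm38, by the GENCODE M21 annotation. Ccr7 (ENSMUSG00000037944) occupies chr11:99144196-99155077 on the minus strand and Igfbp4 (ENSMUSG00000017493) chr11:99041244-99054392 on the plus strand. These neighbours are separated by 89803 bases that hold 1 other gene, Tns4, with 7 UMIs in Mito-high cells and 1 in Mito-low cells. The genes that flank the pair were closer between libraries than Igfbp4 and Ccr7 themselves: Top2a, a DNA topoisomerase of cycling cells, had a Mito-high over Mito-low log2 ratio of 1.15, and Smarce1, a chromatin remodelling subunit, one of −0.13. Nsg2 (ENSMUSG00000020297) lies at chr11:32000463-32059202, plus strand, Dapl1 (ENSMUSG00000026989) at chr2:59484653-59505020, plus strand, and S1pr1 (ENSMUSG00000045092) at chr3:115710433-115715072, minus strand.

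Igfbp4 and Dapl1 were the pair detected together most often relative to their own frequencies, so the 250 bases before the start of each are shown, taken from RefSeq on GRCm38.p6 at chr11:99040994-99041243 and chr2:59484403-59484652, both on the plus strand. Capitals mark the letters of the TATA box, KLF and forkhead motifs named after the sequences.
Igfbp4: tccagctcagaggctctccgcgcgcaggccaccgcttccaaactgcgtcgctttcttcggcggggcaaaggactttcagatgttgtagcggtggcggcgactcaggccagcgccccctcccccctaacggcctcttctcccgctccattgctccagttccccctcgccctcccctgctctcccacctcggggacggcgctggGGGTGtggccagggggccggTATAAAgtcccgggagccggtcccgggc
Dapl1: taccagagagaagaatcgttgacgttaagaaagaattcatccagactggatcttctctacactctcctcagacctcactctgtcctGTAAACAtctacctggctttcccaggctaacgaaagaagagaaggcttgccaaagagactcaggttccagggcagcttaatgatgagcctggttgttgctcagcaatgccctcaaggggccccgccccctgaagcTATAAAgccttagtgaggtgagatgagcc
Both windows hold TATAAA, the TATA box letters, beginning 28 bases before the start in Igfbp4 and 29 bases before it in Dapl1. Of 32851 RefSeq windows of this length, 12.4% hold these letters on either strand. Igfbp4 also holds GGGTG, the reverse complement of the CACCC core that KLF factors bind, 48 bases before the start, as do 52.0% of windows on either strand. Dapl1 holds GTAAACA, the reverse complement of the forkhead motif TGTTTAC, 164 bases before the start, against 3.17% of windows. The Dapl1 window also has the GC box letters GGGCGG on the other strand, left in lower case, 43 bases before the start (32.7% of windows), and TTTGAA, searched for TCF and LEF factors (16.0% of windows), is in none of the members' windows. The marked motifs do not overlap each other. Igfbp4's window has 69.2% G and C, Dapl1's 50% and the median window 52.4%. RefSeq windows matched 3 of the 5 genes, the third being Nsg2, and Ccr7 and S1pr1 were not matched. A match of letters is a description of the sequence and says nothing of binding.

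The first comparison asked how the 5 genes differ between Mito-high and Mito-low cells. All 5 were higher in Mito-high, and 4 of them by at least 1.5-fold, where 3.65% of the 5787 genes at 20 CPM or more in either library were that much higher and 10.7% that much lower. Igfbp4, the binding protein, was furthest apart at 13.3-fold, and Ccr7, the lymph node entry receptor, was 3.42-fold higher from a far larger number of molecules. S1pr1, the exit receptor, differed least, at 1.38-fold. The median log2 ratio was 1.78 over the 5 genes and −0.15 over all genes at 20 CPM or more.

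Ccr7 had 40376 UMIs in Mito-high cells and 7941 in Mito-low cells. That is 449 CPM (445 to 454) in Mito-high cells and 131 CPM (128 to 134) in Mito-low cells, a log2 ratio of 1.78 (1.74 to 1.81), which ranked 22 of 5787 from the top. S1pr1 had 16096 UMIs in Mito-high cells and 7850 in Mito-low cells, or 179 CPM (176 to 182) in Mito-high cells and 130 CPM (127 to 133) in Mito-low cells, a log2 ratio of 0.47 (0.43 to 0.50) and rank 329. The entry receptor therefore differed more than the exit receptor, and neither counting interval of a level overlapped that of the other library.

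Igfbp4 had 7187 UMIs in Mito-high cells and 362 in Mito-low cells, at 79.9 CPM (78.1 to 81.8) and 5.98 CPM (5.38 to 6.63). Its log2 ratio of 3.74 (3.59 to 3.90) ranked 3 of 5787. Dapl1 had 1380 UMIs in Mito-high cells and 188 in Mito-low cells, at 15.4 CPM (14.6 to 16.2) and 3.11 CPM (2.68 to 3.58), a log2 ratio of 2.30 (2.08 to 2.53). This level lies under the 20 CPM of the genes used as background, so Dapl1 has no rank among them. Nsg2 had 9568 UMIs in Mito-high cells and 2600 in Mito-low cells, at 106 CPM (104 to 109) and 43.0 CPM (41.3 to 44.6), a log2 ratio of 1.31 (1.25 to 1.37) and rank 39.

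**Figure D1:**
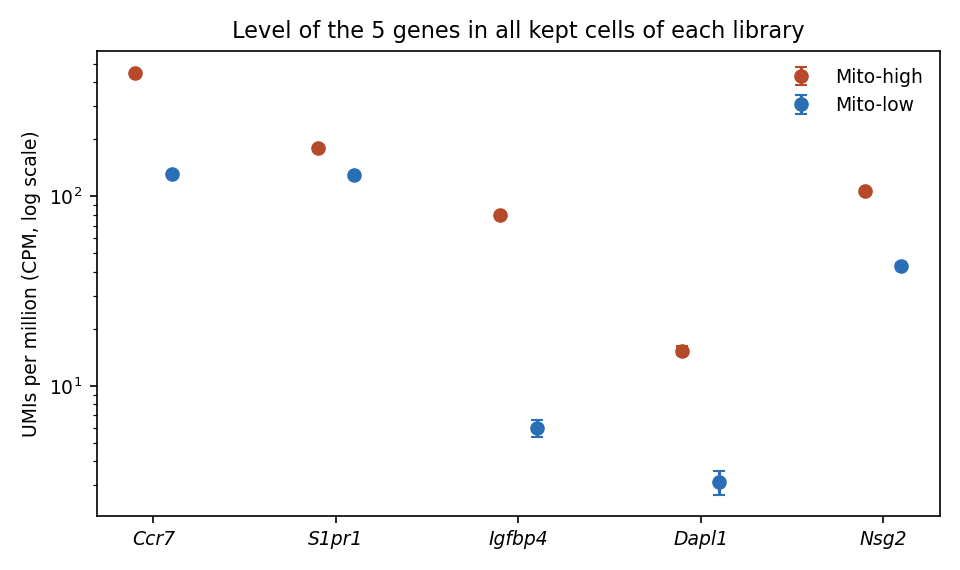
Level of each of the 5 genes in Mito-high and Mito-low cells, in CPM on a log axis, with bars for the exact 95% counting interval of 1 library each. Mito-high lies above Mito-low for all 5 genes, with the widest gap for Igfbp4 (79.9 and 5.98 CPM) and the narrowest for S1pr1 (179 and 130 CPM).

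The call on S1pr1 depends on the scaling. It came to 0.65 with TMM factors, 0.61 with the median gene set to 0 and 0.60 with mitochondrial, ribosomal, T cell receptor and immunoglobulin genes left out of the total, all past 1.5-fold, because these raise every log2 ratio by 0.19, 0.15 and 0.13. Among cells of 4000 to 6000 UMIs it was 0.82, and all 5 genes were then at least 1.5-fold higher. Depth moved with the level itself: S1pr1 stood at 302, 252, 167 and 124 CPM in Mito-high cells of 2000 to 4000, 4000 to 6000, 6000 to 10000 and at least 10000 UMIs, and at 156, 143, 108 and 102 CPM in the same classes of Mito-low cells. Igfbp4 peaked between, at 61.9, 113, 92.3 and 48.6 CPM across these depth classes of Mito-high and at 3.26, 5.25, 9.66 and 3.73 CPM across those of Mito-low.

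More cells carried each transcript in Mito-high. A Ccr7 UMI was found in 73.4% of Mito-high cells and 22.7% of Mito-low cells, and in 49.3% and 14.6% after each cell was thinned to 2000 UMIs, with 139 cells of Mito-high and 491 of Mito-low too shallow for this. The thinned share for S1pr1 was 28.8% of Mito-high cells and 18.8% of Mito-low cells (55.1% and 31.8% unthinned), and that for Nsg2 19.2% and 7.45% (45.5% and 15.6% unthinned). Igfbp4 was in 12.0% of thinned Mito-high and 0.813% of thinned Mito-low cells (22.7% and 1.61% unthinned), and Dapl1 in 2.40% and 0.322% (4.41% and 0.685% unthinned). Dapl1 was the most unevenly spread in Mito-high: the 1% of cells with the most Dapl1 UMIs held 50.4% of them, against 6.21% for Ccr7, 7.11% for S1pr1, 7.73% for Nsg2 and 16.5% for Igfbp4. Single cells reached 42 Ccr7, 23 Igfbp4, 18 Dapl1, 18 S1pr1 and 11 Nsg2 UMIs in Mito-high.

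Free RNA was looked for through Igfbp4, Dapl1 and Nsg2 in barcodes with B cell genes, since B cells normally carry Ccr7 and S1pr1 themselves. Among 33 thinned Mito-high barcodes of this kind (median of all 34, 3936 UMIs), 6.06% had Igfbp4, 3.03% Nsg2 and 0 of 33 Dapl1, which allows up to 9.09%. So few barcodes give wide intervals, as 0.743% to 20.2% for Igfbp4, which includes the 12.0% of all thinned Mito-high cells, so a background share could not be told from theirs at this number of barcodes. The 10 such barcodes in Mito-low, with a median of 6480.5 UMIs, had none of the 3 genes after thinning, which allows shares up to 30%.

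The libraries differed within classes of cells as well. Without the 718 Mito-high and 306 Mito-low cells that had a Cd8a or Cd8b1 UMI, the log2 ratios were 1.78 for Ccr7, 0.46 for S1pr1, 3.79 for Igfbp4, 2.35 for Dapl1 and 1.31 for Nsg2. Among cells with no UMI of Ccl5, Il10 or Klrg1, the log2 ratios of Mito-high over Mito-low were 1.37 for Ccr7, 0.17 for S1pr1, 3.16 for Igfbp4, 1.67 for Dapl1 and 0.85 for Nsg2, and 3.19% of all genes were 1.5-fold higher and 9.86% lower there. S1pr1 thus came closest to equality once these cells alone were compared, with 187 CPM in Mito-high cells and 167 CPM in Mito-low. Among cells with a Foxp3 UMI the ratios were 1.78 for Ccr7, 0.45 for S1pr1, 3.51 for Igfbp4, 2.21 for Dapl1 and 1.45 for Nsg2, where 4.53% of all genes were 1.5-fold higher and 12.2% lower.

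Within each library, cells with and without a Foxp3 UMI had much the same levels. Ccr7 stood at 452 CPM in the 1953 Mito-high cells with a Foxp3 UMI and 448 CPM in the 10264 without, and at 131 CPM in both kinds of Mito-low cells (2026 with and 9653 without). Dapl1 was the furthest apart, with 10.8 CPM in Mito-high cells with Foxp3 and 16.4 CPM in those without, a log2 ratio of −0.59 (−0.83 to −0.37), and with 2.28 and 3.32 CPM in Mito-low, −0.50 (−1.17 to 0.05). The Mito-high ratio of Dapl1, which lies under 20 CPM, was thus just past 1.5-fold, where 0% of 5379 genes at 20 CPM or more were that much lower and 0.0186% that much higher. In Mito-low 0% of 5718 genes were that much lower and 0.105% higher. The other ratios ran from −0.11 for Igfbp4 to 0.14 for Nsg2 in Mito-high, and Igfbp4 was at 6.52 CPM with Foxp3 and 5.84 CPM without in Mito-low, with an interval of the log2 ratio of −0.22 to 0.52. A cell without a Foxp3 UMI need not lack the transcript, and cells with one were deeper, at medians of 7052 and 5987.5 UMIs in Mito-high, and of 5263 and 4558 UMIs in Mito-low. Of 8 markers of conventional CD4 T cells, 3 are members here (Igfbp4, Nsg2 and Dapl1), and the 8, these included, summed to 902 CPM in Mito-high cells and 711 CPM in Mito-low.

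The second comparison set effector cells, defined as cells with a UMI of at least 2 of Ccl5, Il10 and Klrg1, against cells with none of the 3. All 5 genes were lower in effector cells of both libraries, each by at least 1.5-fold, where 6.87% of 5808 genes in Mito-high and 3.05% of 5839 genes in Mito-low were that much lower, and 17.7% and 5.36% that much higher. Those shares are over genes at 20 CPM or more, and Dapl1 in both libraries and Igfbp4 in Mito-low lie under that level. Igfbp4 and Dapl1 had 10 UMIs or fewer in the effector cells of a library. S1pr1 kept the highest share of its level. In summed counts such as these, fewer cells with the transcript and less of it per cell cannot be told apart, so shares of cells are given too.

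In Mito-high, 171 cells (1.40%) were effector cells, with a median of 8904 UMIs, and 10780 had none of the 3 genes, with a median of 5951.5 UMIs. Ccr7 was at 141 CPM (124 to 159) in effector cells and 479 CPM (474 to 484) in cells with none, a log2 ratio of −1.76 (−1.95 to −1.59). S1pr1 was at 119 CPM (104 to 136) in effector cells and 187 CPM (184 to 191) in cells with none, −0.65 (−0.85 to −0.46). Both intervals of a level lie apart, and the entry receptor was reduced by more than the exit receptor.

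Igfbp4 had 10 UMIs in Mito-high effector cells and 6853 in cells with none, at 5.37 CPM (2.58 to 9.88) and 90.1 CPM (87.9 to 92.2), a log2 ratio of −3.93 (−5.13 to −3.19). Dapl1 had 2 UMIs in effector cells and 1296 in cells with none, a log2 ratio of −3.40 (−7.03 to −2.13). Nsg2 was at 35.4 CPM (27.4 to 45.1) in effector cells and 113 CPM (110 to 115) in cells with none, −1.65 (−2.04 to −1.32). After thinning, a Ccr7 UMI was in 14.0% of effector cells and 51.6% of cells with none, S1pr1 in 22.2% and 29.8%, Nsg2 in 4.09% and 20.1%, and Dapl1 in 0.585% and 2.61%. Igfbp4 was in 0 of 171 thinned effector cells, which by the limit of 3 counts allows up to 1.75% with a UMI at that depth (2.13% by the exact interval), and in 13.0% of cells with none. At full depth it was in 6 of the 171 effector cells (3.51%) and in 24.4% of cells with none.

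Mito-low held 1533 effector cells (13.1%, median 5293 UMIs) and 6614 cells with none (median 4489.5 UMIs). Ccr7 was at 32.9 CPM (29.3 to 36.7) in effector cells and 186 CPM (181 to 191) in cells with none, a log2 ratio of −2.50 (−2.67 to −2.34). S1pr1 was at 55.6 CPM (51.0 to 60.6) in effector cells and 167 CPM (163 to 172) in cells with none, −1.58 (−1.72 to −1.46). The order of the receptors was the same as in Mito-high, with Ccr7 further down than S1pr1.

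Igfbp4 had 5 UMIs in Mito-low effector cells and 323 in cells with none, at 0.532 CPM (0.173 to 1.24) and 10.0 CPM (8.97 to 11.2), a log2 ratio of −3.98 (−5.87 to −3.00). Dapl1 had 0 UMIs in the 1533 effector cells and 172 in cells with none, which makes it at least 16.8-fold lower when 3 counts over the group are taken as the limit, while the conditional interval, which also covers the error of the 172 UMIs, puts the log2 ratio at −3.75 or less. Nsg2 was at 11.6 CPM (9.52 to 14.0) in effector cells and 62.3 CPM (59.6 to 65.1) in cells with none, −2.41 (−2.72 to −2.15). After thinning, Ccr7 was in 3.18% of effector cells and 20.7% of cells with none, S1pr1 in 9.60% and 22.8%, and Nsg2 in 1.46% and 10.7%. Igfbp4 and Dapl1 were each in 0 of 1510 thinned effector cells, which allows up to 0.199% by the limit of 3 counts (0.244% by the exact interval), and in 1.28% and 0.528% of cells with none. At full depth Igfbp4 was in 3 of 1533 effector cells (0.196%) and 2.49% of cells with none. Both limits at 2000 UMIs lie below the shares of 0.813% and 0.322% over all thinned Mito-low cells.

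**Figure D2:**
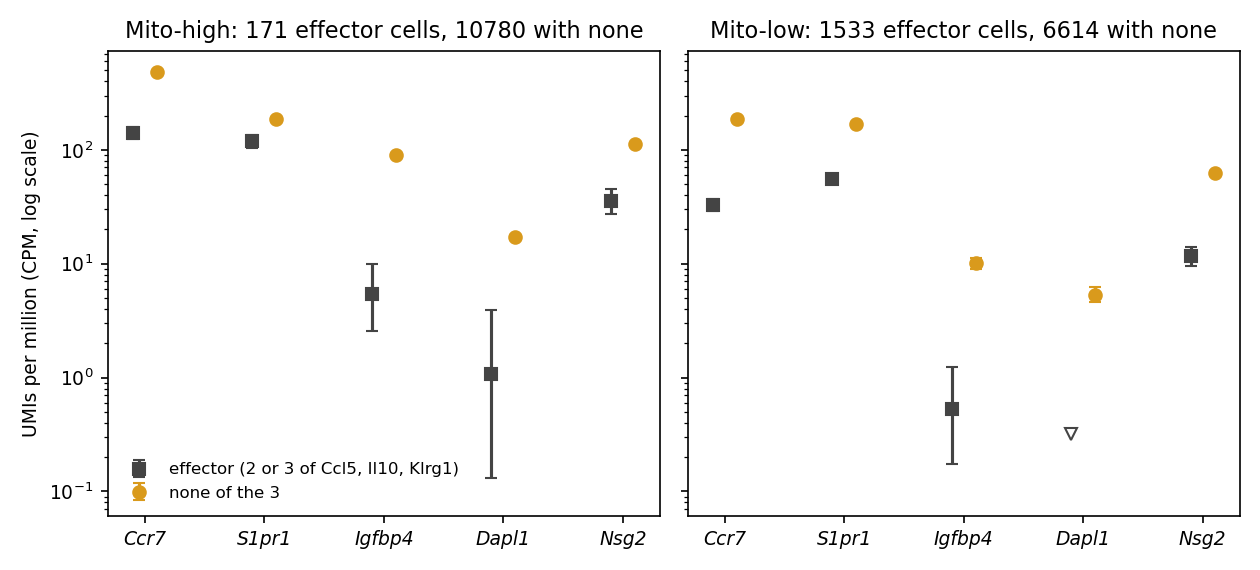
Level of each gene, in CPM on a log axis, in effector cells (squares) and in cells with none of Ccl5, Il10 and Klrg1 (circles), for Mito-high and Mito-low in separate panels, with exact 95% counting intervals and an open triangle at the limit of 3 counts for the 0 Dapl1 UMIs of Mito-low effector cells. Effector cells lie below cells with none for all 5 genes in both libraries, least so for S1pr1 in Mito-high (119 and 187 CPM).

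Cells with exactly 1 of the 3 genes, 1266 from Mito-high and 3532 from Mito-low, stood between. Ccr7 was at 307 CPM in those of Mito-high and 87.1 CPM in those of Mito-low, Nsg2 at 77.1 and 25.6 CPM, Igfbp4 at 27.1 and 1.79 CPM, Dapl1 at 6.86 and 0.844 CPM, and S1pr1 at 135 and 103 CPM. Among cells of 4000 to 6000 UMIs, where depth is alike, Ccr7 was at 98.3 CPM in 31 effector cells and 515 CPM in 3943 cells with none in Mito-high, and at 17.7 CPM in 606 effector cells and 182 CPM in 2583 cells with none in Mito-low. In the same cells S1pr1 was at 172 CPM in effector cells and 259 CPM in cells with none of Mito-high, which is at the edge of 1.5-fold: the log2 ratio was −0.54 with 1 UMI added to each sum, from 28 UMIs in effector cells. In Mito-low it was at 53.6 CPM in effector cells and 186 CPM in cells with none. Among cells with a Foxp3 UMI the Mito-high ratio of S1pr1 was −0.0027, while in Mito-low it was −1.60. Only 29 Mito-high effector cells had a Foxp3 UMI, against 321 in Mito-low. No interval is given for these ratios, so the Mito-high value is not settled by so few cells.

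Between effector cells of the 2 libraries, log2 ratios of Mito-high over Mito-low were 2.10 for Ccr7, 1.62 for Nsg2 and 1.10 for S1pr1, with 10.3% of all genes 1.5-fold higher and 12.4% lower there. Igfbp4 had 10 UMIs in effector cells of Mito-high and 5 in those of Mito-low, a log2 ratio of 3.21 (1.65 to 5.23), and Dapl1 had 2 and 0 UMIs. S1pr1 was thus further apart between libraries in effector cells than among cells with none, where it was 0.17 without matching for depth. That difference was not tested. The effector cells of the libraries were not alike. Ccl5 was at 289 CPM in those of Mito-high and 1052 CPM in those of Mito-low, Il10 at 258 and 420 CPM, and Klrg1 at 287 and 399 CPM. Their median depth was 8904 UMIs in Mito-high and 5293 UMIs in Mito-low. The part of this in the ratios was not tested.

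Levels were then read in other cell states, each defined by a UMI of at least 2 genes of a short list. With the quiescence factor cells left out, 6.88% of Mito-high cells and 9.95% of Mito-low cells were in more than 1 state. Overlap with quiescence factor cells, which made up most of Mito-high, was not counted, so the states are not separate sets of cells. Levels in the states were not matched for depth, although S1pr1 was lower in deeper cells of both libraries. The part of depth in the orders below was not tested. The genes parted here into different orders. Ccr7 was highest in growth-state cells (Eno3, Lad1, Itm2a), Nsg2 had high levels both there and in follicular-type cells (Cxcr5, Bcl6, Pdcd1), S1pr1 was high in tissue-type cells (Ccr2, Il1rl1, S100a4), and Igfbp4 and Dapl1 stood at the top in cells with the quiescence factors Satb1, Lef1 and Bach2.

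Ccr7 was at 547 CPM (533 to 561) in 968 growth-state cells of Mito-high, above 485 CPM (480 to 490) in 10151 quiescence factor cells, and at 440 CPM in 731 follicular-type cells, slightly under the 449 CPM of all kept cells. It was at 370 CPM in 710 interferon-responding cells (Ifit1, Ifit3, Isg15), 283 CPM in 883 cycling cells, 265 CPM in 193 type 1 cells (Cxcr3, Tbx21, Ifng) and 108 CPM in 788 tissue-type cells. Mito-low gave 357 CPM (305 to 416) in 53 growth-state cells, 179 CPM in 4677 quiescence factor cells, 167 CPM in 687 follicular-type cells and 37.5 CPM in 2030 tissue-type cells. Its interferon-responding, cycling and type 1 cells had 96.5, 98.5 and 87.6 CPM, with intervals that overlap each other.

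S1pr1 ran the other way in tissue-type cells. It was at 215 CPM (205 to 226) there in Mito-high, the highest of the states, and above 192 CPM in quiescence factor cells, whereas follicular-type, growth-state and type 1 cells had 106, 109 and 116 CPM with overlapping intervals. In Mito-low it was at 160 CPM (152 to 167) in tissue-type cells and 164 CPM (159 to 169) in quiescence factor cells, which overlap, and at 68.5 CPM (46.8 to 96.7) in growth-state cells. Effector and tissue-type cells were thus alike in their low Ccr7 in Mito-low, at 32.9 and 37.5 CPM, but had 55.6 and 160 CPM of S1pr1.

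Nsg2 was at 118 CPM in both follicular-type and growth-state cells of Mito-high and at 113 CPM in quiescence factor cells, against 26.5 CPM in tissue-type cells. In Mito-low it was at 89.9 CPM (64.8 to 121) in growth-state, 61.7 CPM in follicular-type, 51.2 CPM in quiescence factor and 12.7 CPM in tissue-type cells. Igfbp4 was at 91.6 CPM in quiescence factor cells and 86.6 CPM in interferon-responding cells of Mito-high, with overlapping intervals, at 40.2 CPM in growth-state, 34.5 CPM in follicular-type and 9.69 CPM in tissue-type cells. In Mito-low it was at 11.6 CPM in quiescence factor, 3.83 CPM in interferon-responding and 0.502 CPM in tissue-type cells, and 0 UMIs were found in 165 cycling cells. Dapl1 was at 17.6 CPM in quiescence factor cells of Mito-high, which overlaps the 15.7 CPM (12.7 to 19.3) of interferon-responding cells, and at 1.61 CPM in tissue-type cells, while in Mito-low it was at 5.73 CPM in quiescence factor and 0.585 CPM in tissue-type cells.

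**Figure D3:**
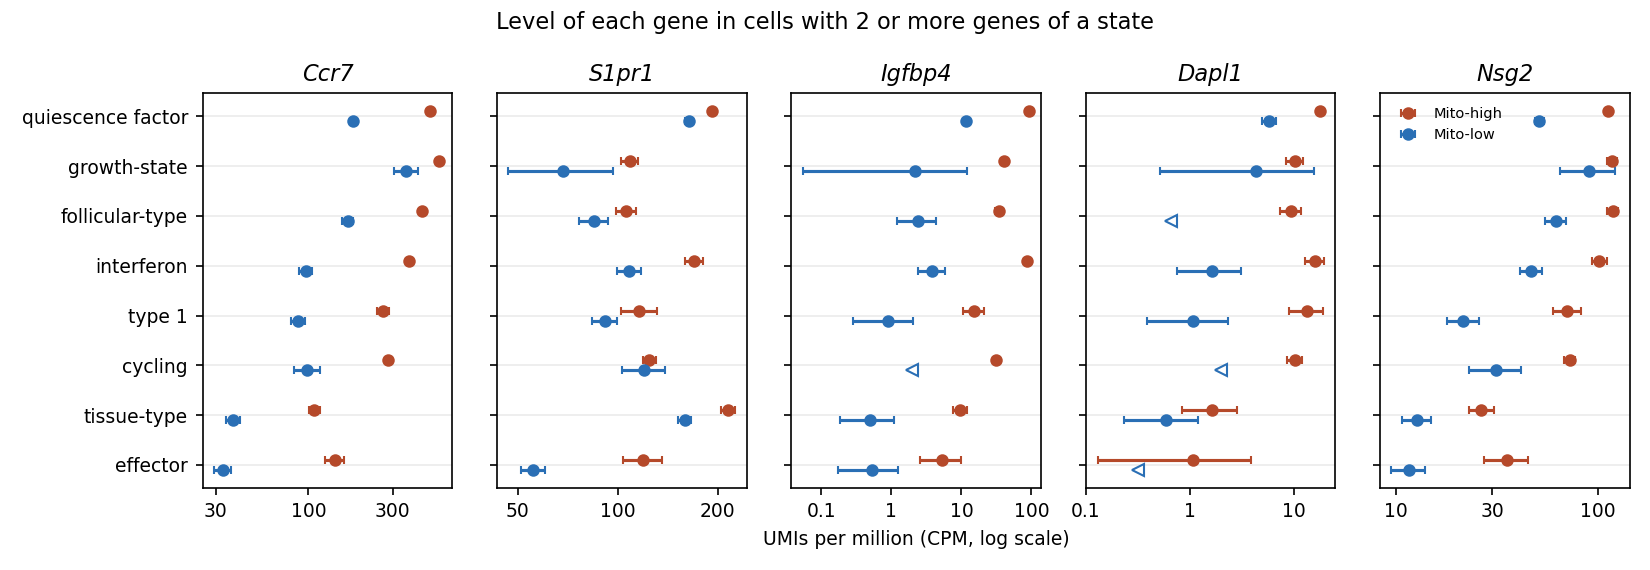
Level of each gene in cells of 8 states, in CPM on a log axis, for Mito-high and Mito-low, with exact 95% counting intervals, where open triangles mark the limit of 3 counts for states with 0 UMIs. Tissue-type cells lie near the low end for Ccr7, Igfbp4, Dapl1 and Nsg2 and near the high end for S1pr1, at 215 CPM in Mito-high cells and 160 CPM in Mito-low.

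The third comparison asked which of the 5 genes were found in the same cells, with every cell thinned to 2000 UMIs. Of the 10 pairs, 1 was found together at least 1.5 times as often as the product of its shares in Mito-high, and 7 in Mito-low. Igfbp4 and Dapl1 were that pair in both libraries. Among genes in at least 2% of Mito-high cells, 0% reached this ratio with Ccr7, 0.0569% with S1pr1, 0.227% with Igfbp4, 2.67% with Dapl1 and 0.0142% with Nsg2. In Mito-low these shares were 0.622%, 0.446%, 8.31%, 14.9% and 1.24%. Igfbp4 and Dapl1 themselves were in 0.813% and 0.322% of thinned Mito-low cells, under this 2%. For a Mito-low pair that holds 1 of them, the share given for that rarer gene is therefore the nearer background. The Mito-low pair of Igfbp4 and Dapl1 has no background of like rarity.

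Igfbp4 and Dapl1 shared 80 Mito-high cells where the product of their shares gives 34.7, a ratio of 2.31 (1.83 to 2.87). Dapl1 was in 5.54% (4.42 to 6.85) of cells with Igfbp4 and 1.97% of cells without. In Mito-low they shared 4 cells where the product gives 0.293, a ratio of 13.7 (3.72 to 35.0). This Mito-low value rests on 4 cells and was 0 when cells were thinned to 1000 UMIs. The other 9 Mito-high pairs had ratios of 1.06 to 1.23, with 1.06 for the receptors Ccr7 and S1pr1.

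In Mito-low, Ccr7 and Igfbp4 shared 45 cells against a product of 13.3, a ratio of 3.38 (2.46 to 4.52), and 49.5% of cells with Igfbp4 had Ccr7. Ccr7 and Nsg2 shared 246 cells against 122, a ratio of 2.02 (1.77 to 2.29), with Nsg2 in 15.0% of cells with Ccr7 and 6.15% of cells without. Ccr7 and Dapl1 had a ratio of 3.04 (1.74 to 4.93), Igfbp4 and Nsg2 2.80 (1.69 to 4.38), S1pr1 and Igfbp4 2.05 (1.43 to 2.85), and S1pr1 and Dapl1 1.63 (0.81 to 2.91), the last with an interval that includes 1. Dapl1 and Nsg2 at 1.49, Ccr7 and S1pr1 at 1.26 and S1pr1 and Nsg2 at 1.06 stayed under 1.5. A ratio can only reach the inverse of the larger share, and Ccr7 alone was in 49.3% of thinned Mito-high cells, so the ratios of the libraries are not on the same footing. Without cells that had any of Ccl5, Il10 or Klrg1, 5 of the 10 Mito-low pairs were at 1.5 or more, with Ccr7 and Igfbp4 at 2.47 and Ccr7 and Nsg2 at 1.49.

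**Figure D4:**
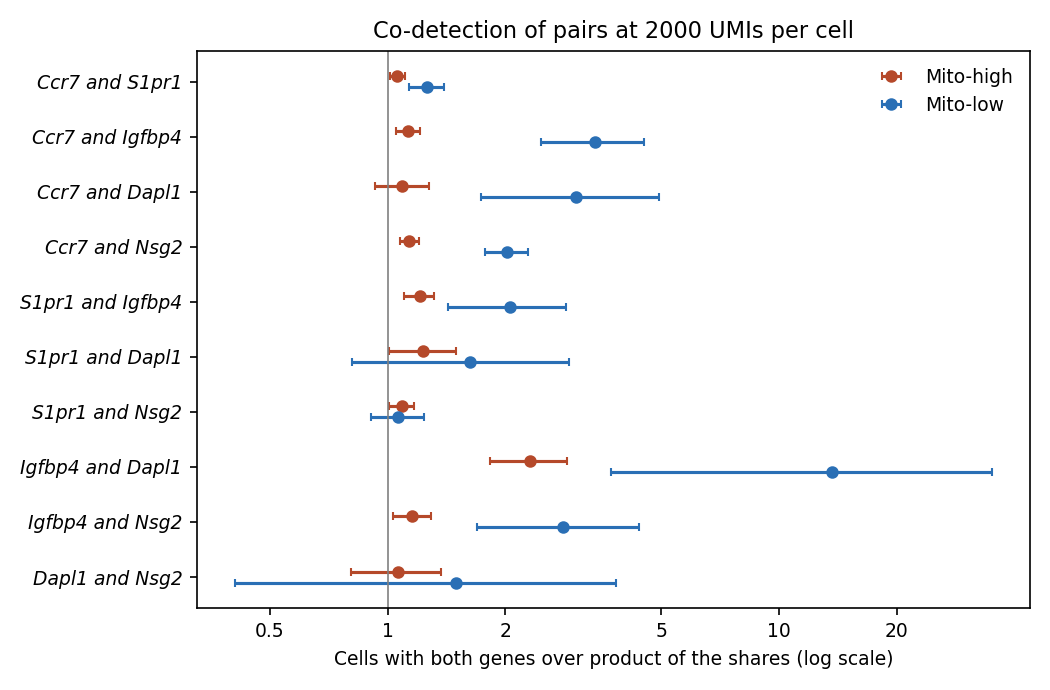
Number of cells with both genes over the number given by the product of their shares, on a log axis, for the 10 pairs in Mito-high and Mito-low after thinning to 2000 UMIs, with exact 95% counting intervals. Igfbp4 with Dapl1 is the highest pair in both libraries, at 2.31 in Mito-high cells and 13.7 in Mito-low cells, and S1pr1 with Nsg2 lies near 1 in both.

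Cells carried 0 to 5 of the genes at once. None was found in 27.7% of Mito-high cells and 65.4% of Mito-low thinned cells, where independent detection at these shares gives 25.1% and 63.4%. At least 3 members were rarer: 3 were found in 6.55% of Mito-high cells and 0.724% of Mito-low cells (5.37% and 0.255% if independent), 4 in 95 Mito-high and 7 Mito-low cells, and all 5 in 6 Mito-high and 0 Mito-low cells. The share of effector cells was 3.41%, 0.944%, 0.244% and 0.379% among Mito-high cells with 0, 1, 2 and 3 members, and 17.8%, 6.48% and 0.926% among Mito-low cells with 0, 1 and 2. Effector cells were called at full depth here, so these shares are not matched for depth. Median full depth was 6652, 6247, 5778 and 5713 UMIs in these Mito-high classes. In those of Mito-low it was 4745, 4826 and 4951 UMIs. The part of depth in the shares was not tested. Of the 81 Mito-low cells with 3 members 0 were effector cells, which allows up to 3.70%.

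Satb1, a chromatin organizer of resting T cells, went with the number of members. It was at 400, 597, 837 and 872 CPM in Mito-high cells with 0, 1, 2 and 3 members and at 120, 206, 343 and 475 CPM in those Mito-low cells, with the intervals at 2 and 3 members overlapping in Mito-high. Klf2 stood at 912, 1281, 1705 and 1945 CPM across these Mito-high classes and at 518, 755, 1090 and 1148 CPM across those of Mito-low, where the intervals of the last 2 overlap. Beyond 3 members, the 95 Mito-high cells with 4 had 2274 CPM of Klf2 (2064 to 2499) and the 6 with 5 had 1250 CPM (700 to 2062), the last from 15 UMIs. Ikzf2, which encodes the Treg factor Helios, was lower with more members, at 1443, 1271, 1049 and 796 CPM in Mito-high and 1998, 1724, 1450 and 932 CPM in Mito-low. Foxp3 stood at 25.9, 27.8, 33.2 and 28.4 CPM in Mito-high and at 44.1, 38.0, 40.1 and 18.5 CPM in Mito-low, where the last value rests on 3 UMIs.

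**Figure D5:**
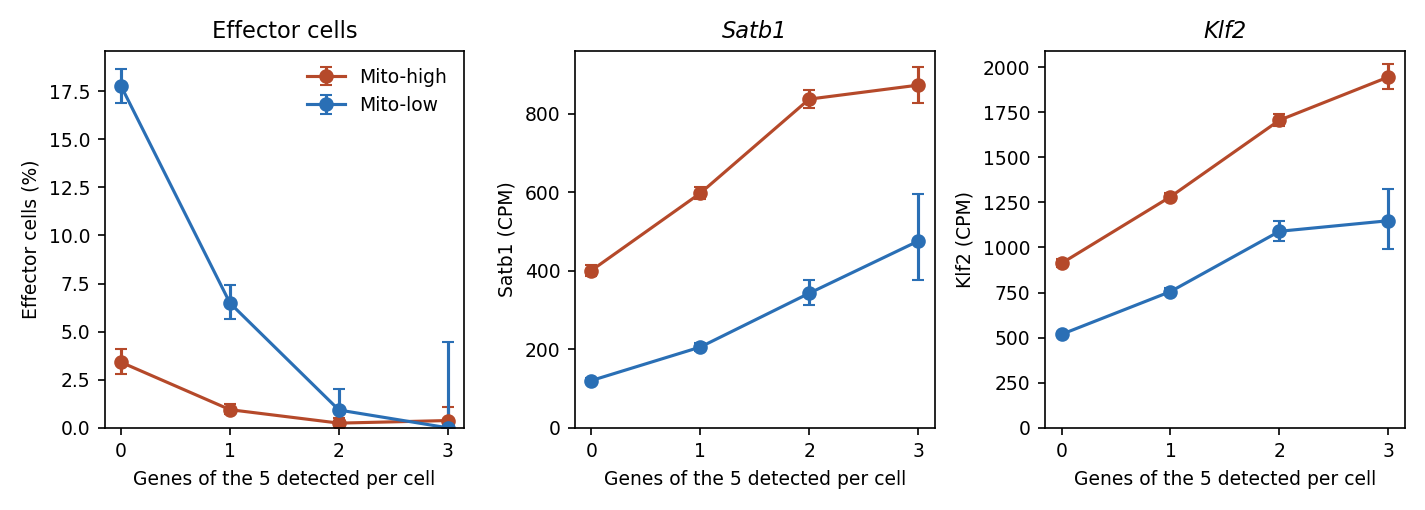
Share of effector cells (%) and levels of Satb1 and Klf2 (CPM) by the number of the 5 genes found in a cell thinned to 2000 UMIs, for Mito-high and Mito-low, with exact 95% counting intervals. Effector cells were called at full depth. From 0 to 3 members Satb1 and Klf2 are higher with each further one in both libraries, with Satb1 at 400, 597, 837 and 872 CPM in Mito-high, and effector cells are most frequent among cells with 0 members, at 3.41% in Mito-high, against 17.8% in Mito-low.

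Genes were also ranked by likeness to each member, measured as the lower of the libraries' log2 ratios of CPM in thinned cells with the member over cells without it, across about 2554 genes at 50 CPM or more in both. Ccr7 was most like Tnfsf8, which encodes CD30 ligand (0.59 in Mito-high cells and 0.85 in Mito-low cells), then Satb1 (0.55 and 0.94), Rab3ip (0.51 and 0.99) and Prickle1 (0.48 and 0.81). S1pr1 was most like St8sia6, a sialyltransferase (0.83 and 1.04), then Klf2 (0.68 and 0.79), the phosphatase Dusp10 (0.67 and 0.75) and the kinase Txk (0.67 and 0.90).

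Among genes at 50 CPM or more, Igfbp4 was most like the adaptor Grap2 (0.73 in Mito-high cells and 1.19 in Mito-low cells), the survival factor Bcl2 (0.70 and 2.39), the integrin chain Itga6 (0.65 and 1.46) and Txnip, an inhibitor of thioredoxin (0.58 and 1.40). Dapl1, which is under that level, had 1.42 and 4.09 with Igfbp4. Dapl1 in turn was nearest to Pced1b (0.95 and 0.68), the phosphatase subunit Ppp6c (0.72 and 0.62), Grap2 (0.60 and 1.08) and the costimulatory ligand Cd86 (0.73 and 0.60), from 36 Mito-low cells with the gene. No counting interval was formed for these ratios, so the order of genes near Dapl1 is not settled by so few cells. Nsg2 had the weakest neighbours: Ift80, a ciliary transport subunit (0.44 and 1.05), the phosphodiesterase Pde7a (0.43 and 0.42), the epoxide hydrolase Ephx1 (0.38 and 0.59) and the receptor Igflr1 (0.40 and 0.38).

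Most other measured genes of the same pathways were within 1.5-fold between libraries. Of 18 other genes of lymph node entry and CCR7 signalling, 16 were measured (at least 10 CPM in a library), and 14 of these were within 1.5-fold, with a median log2 ratio of −0.06 over the 16. Itga4, an integrin chain of entry into inflamed tissue, was lower in Mito-high, at 113 CPM in Mito-high cells and 228 CPM in Mito-low (−1.01). The 14 included the G protein subunit Gnai2 (−0.03), the migration factor Dock2 (−0.45) and the receptor kinase Grk6 (−0.01).

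Of 18 genes of sphingosine 1-phosphate and egress, 11 were measured, and 1 was higher and 0 lower, with a median of −0.11. Klf2, the activator of S1pr1, was at 1096 CPM in Mito-high cells and 575 CPM in Mito-low (0.93). Cd69, which removes S1PR1 from the cell surface, was at 285 CPM in Mito-high cells and 308 CPM in Mito-low (−0.11), S1pr4 had −0.10, and Gna13, a G protein subunit of the receptor S1PR2, had −0.55. Of 16 genes of the insulin-like growth factor axis, 4 were measured: Igf2r, the scavenging receptor, was at least 1.5-fold higher (0.76), and Igf1r at 0.24, Irs2 at 0.36 and Insr at −0.37 were not. Igfbp7 was at 3.35 CPM in Mito-high cells and 3.29 CPM in Mito-low, and the other 5 binding protein genes listed had 0 to 15 UMIs in a library. Of 6 relatives and partners of Dapl1 and Nsg2, 1 was measured, Dap, at 0.27.

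Of 22 genes of resting T cells, 11 were higher in Mito-high by 1.5-fold or more and 2 lower, with a median of 0.65. Treml2 (1.91), Satb1 (1.74), Ly6c1 (1.73) and the actin crosslinker Actn1 (1.38) were among those higher, while Il7r, the interleukin-7 receptor chain of naive and memory cells, was lower (−1.26), as was Btg1 (−0.66). Of 20 effector Treg genes, 0 were higher and 18 lower, with a median of −1.48. Within Mito-high, 0 of 22 resting genes were higher in effector cells than in cells with none and 17 lower (median −1.26), and within Mito-low 0 of 21 were higher and 14 lower (median −0.79).

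The same pathways were read in effector cells against cells with none. Cxcr5, the receptor for B cell follicles, was lower in both libraries, with log2 ratios of −1.46 in Mito-high cells and −1.25 in Mito-low cells. Ccr6 was lower in Mito-low alone among the libraries (0.06 in Mito-high cells and −1.25 in Mito-low cells), a difference that was not tested. Klf2 had −1.62 in Mito-high cells and −0.83 in Mito-low cells, and S1pr4, a related receptor, had 0.91 and −0.15. Igf1r (−1.60 and −0.95), Irs2 (−1.23 and −1.04) and Igf2r (−1.18 and −0.74) were lower in effector cells of both libraries, as Igfbp4 was.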

How the data were processed

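What was deposited, per the file headers, is a matrix of raw UMI counts for each of the sorted Mito-high and Mito-low Treg libraries. The submitters' processing notes name Cell Ranger 7.1.0, Seurat 4.3.0.1 and mm10. Annotation, treatment of introns and any barcode filter were not given in the sources used here. More barcodes are in the Mito-high table than the 12000 cells loaded. No empty droplets were at hand, and no doublet caller was run.

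UMIs of barcodes with at least 500 genes and at most 20% mt- UMIs were summed per library or class of cells and divided by the total (CPM). Log2 ratios add 1 UMI to each sum. Intervals are exact: Poisson for sums, conditional binomial for ratios and Clopper-Pearson for shares, at 95%, and cover counting error only. UMIs of the 5′ kit are not scaled by gene length, so levels are compared between cells and not between genes. Co-detection used cells thinned without replacement to 2000 UMIs. Cells are not replicates, so no test was made and 1.5-fold is used only to describe. The share of genes past it is over genes at 20 CPM or more in either group.

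The members, the 18 gene lists and the cell states were chosen with earlier results of these data known. Named are the members, up to 5 genes per list with the largest absolute ratio between libraries, the 4 genes most like each member, and 9 Treg and resting genes. Other list genes with values (such as Gnai2, Grk6, Igfbp7, S1pr4, Ccr6 and Cxcr5) and the flanking genes of Igfbp4 and Ccr7 were chosen after their values were seen. Values of some list genes are not reported here. The steps were tested on simulated counts. Computation used numpy 2.4.6, scipy 1.17.1 and pandas 2.3.3, and TMM factors came from edgeR 4.0.16 in R 4.3.3.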

Additional observations from a re-analysis of the deposited data

How the results depend on the processing

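The number of members at least 1.5-fold apart was 4 to 5 between libraries, 4 to 5 in Mito-high effector cells and 5 throughout in Mito-low effector cells, over other scalings, cell filters, depth windows, definitions of effector cells and the removal of B cell-like, cycling, Cd8a or Cd8b1 positive and, chosen after seeing the data, shared barcodes. S1pr1 was the member that crossed the 1.5-fold size, both between libraries and in Mito-high effector cells. The number of pairs co-detected at 1.5 times or more was 1 throughout in Mito-high and 5 to 7 in Mito-low. Of 289 values for single genes or pairs, 213 moved by less than their counting interval, 74 moved by more, and 2 that had been at 1.5 or more turned round, to below 1: in Mito-low the co-detection ratio of Igfbp4 and Dapl1 was 0 with cells thinned to 1000 UMIs, and that of S1pr1 and Dapl1 was 0.885 among cells with a Foxp3 UMI; the cause was not tested. Among those that moved without having been at 1.5, pair ratios also fell below 1 among cells with a Foxp3 UMI, to 0.942 for S1pr1 and Igfbp4, 0.874 for S1pr1 and Dapl1 and 0.901 for S1pr1 and Nsg2 in Mito-high and to 0 for Dapl1 and Nsg2 in Mito-low. With cells weighted alike, no ratio could be formed for Dapl1 in Mito-low effector cells, which had 0 UMIs. No paired analysis was possible because each population has 1 library. Without replicates no value can be separated from a difference between these 2 libraries, and Dapl1 and Mito-low Igfbp4 rest on few molecules.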
